A study of Homo sapiens with 14 samples.

Results

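HOXA3, HOXA5, HOXA6, HOXA7, HOXA9, HOXA10, MEIS1 and PBX3 are the HOXA-cluster genes and the TALE-class partner genes of a transcription factor programme known from acute myeloid leukaemia. These 8 genes were taken by name from a table of read counts for 58037 gene IDs, and all 8 were present under the symbols of GENCODE release 29. The table covers 14 libraries of OCI-AML2, an established human acute myeloid leukaemia cell line. The cells had RUNX1 intact on both alleles (Runx1wt/wt, here wild type) or R174*, a stop codon, on 1 allele (Runx1R174*/wt, here mutant). The RUNX1 protein binds DNA and directs blood cell development. There were 2 wild-type libraries of total RNA, 4 of mutant controls, and 4 of mutant cells kept for 8 h in 100 nM homoharringtonine (HHT), which blocks translation elongation. RiboLace, which captures RNA held by active ribosomes, was run on 2 further samples of each genotype. The mutant cells were 2 lines, F3 and G7, each with 2 control and 2 HHT libraries, where F3 gave replicates 1 and 2 and G7 replicates 3 and 4. Both mutant RiboLace libraries came from F3. DMSO was the vehicle, and all cells grew in alpha-MEM with 20% FBS. The labels give the treatment of wild type as none and that of the mutant controls as a control of 8 h, while another label gives 0 h for both, so genotype and control treatment cannot be told apart in total RNA. With controls of 0 h, HHT and culture time could not be told apart either. Wild type is the parent line alone, and the labels do not say whether F3 and G7 are each 1 clone. The labels do not say whether replicates were separate cultures, so p-values measure only the spread between these libraries.

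HOX proteins are homeodomain transcription factors that set position along the body axis in the embryo, and the genes of the HOXA cluster are also active in blood stem and progenitor cells, where they are turned down as cells mature. HOX proteins bind DNA weakly alone and gain affinity and choice of site through TALE homeodomain partners of the MEIS and PBX families. HOXA9 with MEIS1 and PBX3 maintains self-renewal in leukaemias with KMT2A rearrangement or NPM1 mutation, where the KMT2A-menin-DOT1L machinery keeps these genes active and Polycomb proteins oppose it.

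HOXA3 (ENSG00000105997.22, chr7:27106184-27152581), HOXA5 (ENSG00000106004.4, chr7:27141052-27143668), HOXA6 (ENSG00000106006.6, chr7:27145396-27150603), HOXA7 (ENSG00000122592.7, chr7:27153716-27157936), HOXA9 (ENSG00000078399.16, chr7:27162435-27175180) and HOXA10 (ENSG00000253293.4, chr7:27170591-27180261) lie in 1 cluster on the minus strand of GRCh38. MEIS1 (ENSG00000143995.19, chr2:66433452-66573869) and PBX3 (ENSG00000167081.16, chr9:125747345-125967377) lie on the plus strands of other chromosomes. Several exons are shared with other genes, and whether reads were counted by strand is not stated. The antisense gene HOXA-AS3 covers 62.5% of the exon length of HOXA7, 39.3% of HOXA6 and 6.69% of HOXA3, and had 9 to 27 reads of its own per total RNA library. HOXA10-AS covers 16.4% of HOXA10 and 13.9% of HOXA9 and had 7 to 17 reads. A protein-coding readthrough gene, AC004080.3, shares 13.1% of the exons of HOXA9 and 9.93% of those of HOXA10 and had 0 reads in every library. HOXA-AS2 covers 8.69% of HOXA3 and had 1 to 14 reads per total RNA library. MEIS1-AS2 covers 4.01% of MEIS1, with 0 to 2 reads per total RNA library and 2 to 7 per RiboLace library, and MEIS1-AS3 covers 0.174%. AC004080.5 (HOXA3 and HOXA6) and AC004080.6 (HOXA3) had 0 reads, and MIR196B, which shares exons with HOXA9, was not among the gene IDs. HOXA6 and HOXA7 are thus the members whose low counts overlap most with another gene.

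The RefSeq promoter table (GRCh38.p14) matched 7 members, all but HOXA5, with 14 start sites in all. In the 250 bases before each start, 3 motifs were searched on both strands: the RUNX core TGTGGT, the MEIS core TGACAG and the PBX-HOX core TGATTNAT, none of which is contained in another. The RUNX core was in 1 of the 14 windows, that of MEIS1, against 11.0% of all 35116 promoter windows of this length. The MEIS core was in 1 of 14, that of PBX3, against 13.0%. The PBX-HOX core was in 0 of 14, against 2.48%. HOXA3 has more of the 14 windows than any other member, and some of its windows lie wholly in annotated exons. The windows of both genes with a match are shown with that of HOXA9, their leukaemia partner, as these 3 genes form the core of the programme. Capitals mark the matched core: the RUNX core of MEIS1 lies on the gene's strand with its first base 169 bases before the start, and PBX3 carries CTGTCA, the MEIS core of the opposite strand, 20 bases before the start. Sequences are 5′ to 3′ on the gene's strand, at chr2:66434875-66435124 (MEIS1), chr9:125747933-125748182 (PBX3) and chr7:27165538-27165787 (HOXA9). A match is a string of letters and was not tested as a binding site.
MEIS1: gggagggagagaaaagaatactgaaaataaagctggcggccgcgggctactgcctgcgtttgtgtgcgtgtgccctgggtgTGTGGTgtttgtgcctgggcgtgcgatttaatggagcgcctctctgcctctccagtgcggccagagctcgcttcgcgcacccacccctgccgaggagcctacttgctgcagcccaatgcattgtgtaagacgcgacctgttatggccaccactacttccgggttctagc
PBX3: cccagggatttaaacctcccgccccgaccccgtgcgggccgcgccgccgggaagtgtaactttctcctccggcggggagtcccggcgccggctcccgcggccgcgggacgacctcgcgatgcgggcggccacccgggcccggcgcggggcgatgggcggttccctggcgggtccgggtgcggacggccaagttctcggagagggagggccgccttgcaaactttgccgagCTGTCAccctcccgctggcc
HOXA9: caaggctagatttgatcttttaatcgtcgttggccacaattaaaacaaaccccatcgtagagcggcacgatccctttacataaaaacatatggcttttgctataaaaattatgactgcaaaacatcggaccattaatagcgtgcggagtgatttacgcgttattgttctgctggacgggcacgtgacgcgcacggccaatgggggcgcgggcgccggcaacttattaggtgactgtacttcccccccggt

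Depth was 19250789 to 21925693 counts in the 10 total RNA libraries and 465052 to 2034796 in the 4 RiboLace libraries, lowest in mutant RiboLace replicate 2. CPM, the depth-scaled count, was computed with TMM factors within each assay. RUNX1 was at 140 and 130 CPM in wild-type total RNA. F3 controls held 79.0 and 82.9 CPM, and G7 controls held 131 and 114. Its RiboLace levels were 132 to 163 CPM, and the 4 HHT libraries held 143 to 177 CPM. These counts pool both alleles and give no check of the genotype. In each group, 5 of 7 myeloid markers had at least 10 reads in every library, at a summed 894 to 1180 CPM in total RNA, while the erythroid markers HBB, HBA1 and ALAS2 were at 0 in all 14. T cell markers summed to at most 0.0896 CPM and epithelial or stromal ones to at most 0.423 in total RNA. Both sums were higher in RiboLace, where T cell markers reached 3.38 CPM in wild type and 2.47 in F3. Epithelial or stromal markers summed to 6.19 to 10.1 CPM in wild-type RiboLace and to 14.0 to 25.5 in F3. In each RiboLace group 1 of these 6 markers had at least 10 reads in every library. Of 4 B cell markers, 2 or 3 were detected in every library of each total RNA group, at a summed 9.39 to 17.3 CPM. Of 4 megakaryocyte markers 2 were, with PF4 and PPBP at 0, and their sum was 4.58 to 5.77 CPM in wild type, 6.86 to 28.6 in mutant controls and 2.8 to 9.9 after HHT. Their part in the results was not tested.

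All 8 genes had at least 10 reads, the count taken here as detection, in each of the 10 total RNA libraries. In RiboLace, wild-type replicates reached it with 5 and 4 of the 8 genes, mutant replicates with 5 and 3. HOXA10, MEIS1 and PBX3 did so in all 4 RiboLace libraries. HOXA3, HOXA6 and HOXA7 did in none, with 1 to 5, 0 to 5 and 1 to 6 reads, and HOXA6 had 0 reads in mutant RiboLace replicate 2. At that library's depth, values of these 3 genes are set by single reads.

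Levels were compared between genes as CPM per kilobase of annotated exon. That length counts all annotated exons of a gene, 10.934 kb for MEIS1 and 3.029 kb for HOXA9, and which transcripts were made was not analysed. The order depends on it: in wild-type total RNA, MEIS1 at 40.5 CPM stood above HOXA9 (30.9), HOXA10 (21.4) and HOXA5 (9.45) before division by length. PBX3 led in wild-type total RNA at 21.6 ± 2.04 CPM per kb (SD, n = 2), followed by HOXA9 at 10.2 ± 0.836. HOXA10 (5.78 ± 1.23) and HOXA5 (5.54 ± 0.122) overlapped each other, and MEIS1 followed at 3.7 ± 0.433 on the same scale. HOXA6, HOXA7 and HOXA3 came last at 1.19, 0.67 and 0.476 CPM per kb. The libraries of all neighbours in this order but HOXA10 and HOXA5 were separate. In the mutant controls the order began the same way, with PBX3 at 25.6 ± 1.16 and HOXA9 at 9.72 ± 0.755 CPM per kb (SD, n = 4), and the last 3 genes overlapped, HOXA6 with HOXA7 and HOXA7 with HOXA3. After HHT, HOXA9 (20.2 ± 4.5 CPM per kb) and PBX3 (18.4 ± 0.618) overlapped at the top. Taken by line, HOXA9 stood above PBX3 in F3 (24.1 against 18.1 CPM per kb) and below it in G7 (16.4 against 18.7). In RiboLace, MEIS1 led in both genotypes, at 37.3 ± 4.29 CPM per kb in wild type and 28.7 ± 3.83 in F3 (SD, n = 2), ahead of PBX3 at 12.7 and 13.1.

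**Figure D1:**
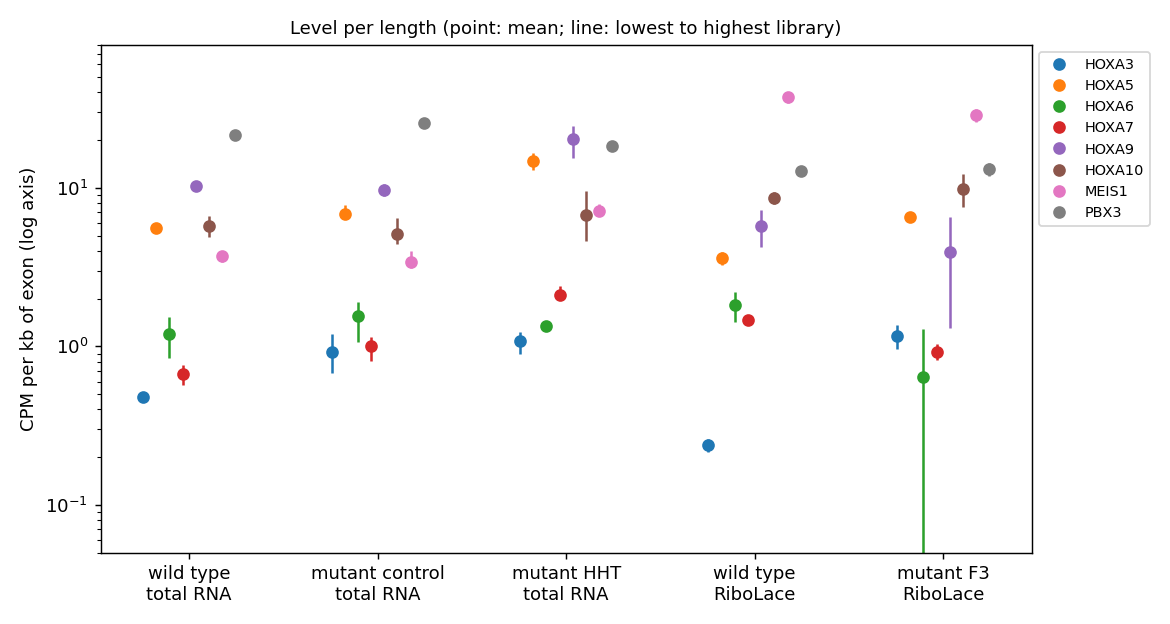
Level of each gene per kilobase of exon (CPM per kb, log axis) in the 5 groups; points are means and vertical lines run from the lowest to the highest library, with the line of HOXA6 in mutant RiboLace going down to 0 below the axis. PBX3 leads in wild-type and mutant control total RNA, HOXA9 and PBX3 after HHT, and MEIS1 in both RiboLace groups.

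The first comparison asked whether the programme differed between mutant and wild-type cells in total RNA. F3 and G7 controls were pooled there, so differences between the lines counted as error. None of the 8 genes passed the test (edgeR quasi-likelihood, adjusted p under 0.05 over all genes), where 4.56% of the 13949 genes tested did. At an unadjusted p under 0.05 there were 2 of the 8, HOXA3 and PBX3, against 21.9% of all genes, which is about the same share. The median log2 fold change of the 8 was 0.28, against 0.00 over all genes, and 4 of the 8 had mutant libraries that did not overlap wild type, as did 32.9% of all genes.

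HOXA3, the most anterior of the HOXA genes here, had the lowest level per length in wild type and the highest fold change. Wild type held 2.18 and 1.92 CPM, F3 controls 4.53 and 3.23, and G7 controls 5.16 and 2.91, from 39 and 40 reads in wild type and 56 to 98 in the mutant. Every mutant library lay above both wild-type libraries, by a log2 value of 0.95 ± 0.29 (SE, n = 2 and 4, adjusted p = 0.0951). It passed with no filter on low counts (0.95, adjusted p = 0.015).

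Each mutant line was then set against the same 2 wild-type libraries, which both comparisons share. HOXA3 alone of the 8 passed, at 0.92 ± 0.29 in F3 (adjusted p = 0.0378) and 0.98 ± 0.29 in G7 (adjusted p = 0.0263). Over all genes, 18.1% were called in F3 and 17.7% in G7, so 1 of 8 is no larger a share. The HOXA3 calls rest on single libraries. Without mutant control replicate 1 the F3 value was 0.66 (adjusted p = 0.296), without mutant control replicate 3 the G7 value was 0.51 (adjusted p = 0.313), and without wild-type replicate 2 they were 0.83 and 0.89 (adjusted p = 0.0739 and 0.0518). With DESeq2 neither passed (adjusted p = 0.0761 and 0.057).

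HOXA5, a cluster gene of the middle group, stood at 9.31 and 9.60 CPM in wild type, 11.0 and 10.9 in F3 and 13.3 and 11.9 in G7. The mutant libraries were all higher, but the difference did not pass in F3 (0.20 ± 0.15, adjusted p = 0.381) or in G7 (0.42 ± 0.15, adjusted p = 0.0597). HOXA7 had 34 and 28 reads in wild type and 37 to 55 in the mutant, or 1.85 and 1.38 CPM against 2.34, 2.78, 1.95 and 2.65, without overlap (0.59 ± 0.26, adjusted p = 0.231). HOXA6 stood at 1.09 and 1.97 CPM in wild type and overlapped the mutant controls, at 2.44, 1.36, 2.16 and 2.08 (0.38 ± 0.34, adjusted p = 0.558).

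HOXA9, the HOX gene most tied to leukaemic self-renewal, stood at 29.1 and 32.6 CPM in wild type, 31.1 and 31.7 in F3 and 28.0 and 27.1 in G7. Mutant and wild-type libraries overlapped, and the interval of the log2 difference ran from -0.29 to 0.16. HOXA10, its neighbour, stood at 24.7 and 18.2 CPM in wild type, 16.4 and 18.3 in F3 and 23.8 and 17.3 in G7. The groups overlapped (-0.18 ± 0.18, interval -0.53 to 0.18). Without wild-type replicate 2, HOXA10 fell below wild type in F3 (-0.51, adjusted p = 0.0217).

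MEIS1, the TALE partner that speeds HOXA9 leukaemia in mice, stood at 37.1 and 43.8 CPM in wild type, 35.4 and 34.0 in F3 and 35.0 and 44.0 in G7. The groups overlapped, with an interval of the log2 difference from -0.39 to 0.14. PBX3, which joins HOXA9 and MEIS1 on DNA, stood at 91.3 and 104 CPM in wild type, 112 and 115 in F3 and 114 and 124 in G7. All mutant libraries were higher, by 0.24 ± 0.10 (adjusted p = 0.188). Without wild-type replicate 2 the G7 value passed (0.38, adjusted p = 0.0462).

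The control libraries of the 2 lines were also compared with each other, and 0 of the 8 genes passed, against 12.5% of all genes. DESeq2 also called 0, and 0 had an unadjusted p under 0.05, against 26.0% of all genes. HOXA5 (higher in G7) and HOXA9 (lower in G7) were the 2 of 8 whose lines did not overlap, at 0.21 ± 0.14 and -0.18 ± 0.11, where 53.9% of all genes did not.

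**Figure D2:**
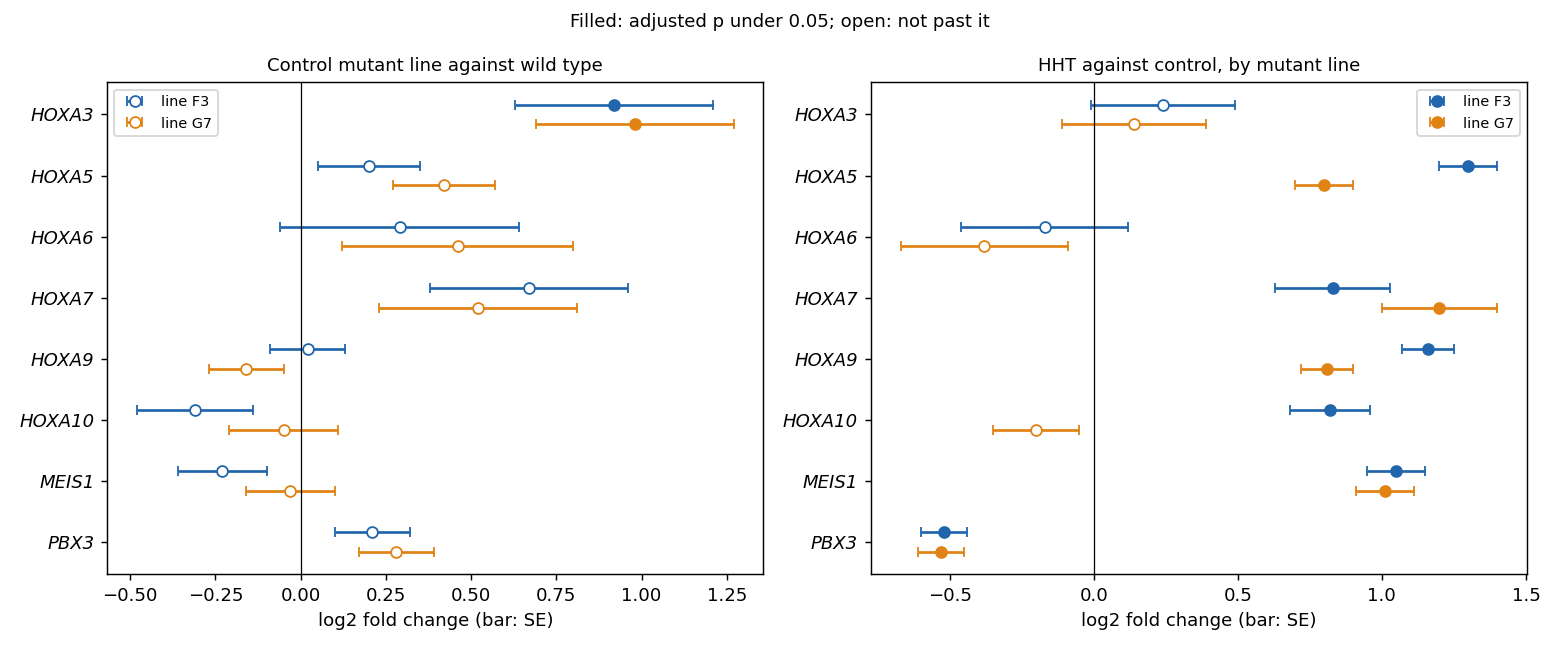
Log2 fold changes (x axis) of the 8 genes with SE bars, on the left in control cells of each mutant line against wild type and on the right after HHT against control in each line; filled points passed at an adjusted p under 0.05. On the left only HOXA3 is filled, and on the right the lines part at HOXA10, at 0.82 in F3 and -0.20 in G7.

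The second comparison set the 4 HHT libraries against the 4 mutant controls, with line as a covariate. MEIS1, HOXA5, HOXA7 and HOXA9 rose, by factors of 1.97 to 2.05, and PBX3 fell to 0.691 of its control level. These 5 of 8 calls stand against 78.6% of all 13983 genes tested, 39.8% higher and 38.8% lower, so a call is not particular to these genes in this comparison. The median log2 fold change of the 8 was 0.65, against 0.00 over all genes. Scaling by library totals alone in place of TMM moved the median of all genes by 0.23 and the share of higher genes among the calls from 50.6% to 61.6%. Under it the 5 called members kept their directions.

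In F3, HOXA9 went from 31.1 and 31.7 CPM to 74.5 and 71.2 after HHT. In G7 it went from 28.0 and 27.1 to 46.7 and 52.9 CPM. Every HHT library was above every control, by 0.98 ± 0.08 on the log2 scale (adjusted p = 5.75e-08), and the F3 libraries were above those of G7 after HHT.

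HOXA5 in F3 went from 11.0 and 10.9 CPM to 27.6 and 28.1. In G7 it went from 13.3 and 11.9 to 22.0 and 23.2 CPM. The groups did not overlap, and the lines changed order, G7 being the higher before and F3 after (log2 fold change 1.04 ± 0.10, adjusted p = 3.73e-07). HOXA7 in F3 went from 2.34 and 2.78 CPM to 4.72 and 4.76. In G7 it went from 1.95 and 2.65 to 5.78 and 5.20, again without overlap (over both lines 1.01 ± 0.15, adjusted p = 2.53e-05). Its reads went from 37 to 55 per control library to 108 to 129, and HOXA-AS3, which shares its exons, was not called in either line.

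F3 controls held 35.4 and 34.0 CPM of MEIS1 and both F3 HHT libraries held 74.7. In G7 it went from 35.0 and 44.0 to 77.8 and 86.5 CPM. All 4 HHT libraries were above all controls, with log2 fold changes of 1.02 ± 0.08 over both lines (adjusted p = 1.6e-08), 1.05 in F3 and 1.01 in G7. PBX3 moved the other way. F3 went from 112 and 115 CPM to 81.2 and 82.8, and G7 from 114 and 124 to 82.2 and 87.5. Its 4 HHT libraries lay below all 4 controls and below both wild-type libraries (-0.53 ± 0.06, adjusted p = 8.5e-07). With library totals alone PBX3 stood at -0.31 (adjusted p = 0.00011).

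Ratios of reads within a library do not depend on scaling. MEIS1 had 0.295 to 0.356 reads per PBX3 read in the 4 controls and 0.902 to 0.988 in the 4 HHT libraries, against 0.406 and 0.42 in wild type. HOXA10 had 0.527 and 0.576 reads per HOXA9 read in F3 controls. G7 controls had 0.851 and 0.639, and the HHT libraries 0.38, 0.494, 0.366 and 0.374 in replicates 1 to 4. HOXA9 per MEIS1 read went from 0.878 and 0.933 to 0.998 and 0.953 in F3 and from 0.8 and 0.615 to 0.6 and 0.612 in G7, so that F3 lay above G7 both before and after HHT. For the ratios with HOXA10 and PBX3, control and HHT libraries did not overlap.

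HOXA3 after HHT held 4.41, 5.07, 3.85 and 5.29 CPM in replicates 1 to 4, within the range of the controls but for 1 library (0.18 ± 0.18, adjusted p = 0.388). HOXA6 stood at 1.79, 1.72, 1.75 and 1.61 CPM (-0.28 ± 0.20, adjusted p = 0.208), from 38 to 41 reads per library, and passed as a fall without mutant control replicate 2 (-0.46, adjusted p = 0.0381). HOXA10 over both lines did not pass either (0.31 ± 0.18, adjusted p = 0.124), but it did with library totals alone (0.53, adjusted p = 0.0172), with no filter (0.37, adjusted p = 0.00044), without mutant control replicate 3 (0.48) and without HHT replicate 3 (0.46).

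**Figure D3:**
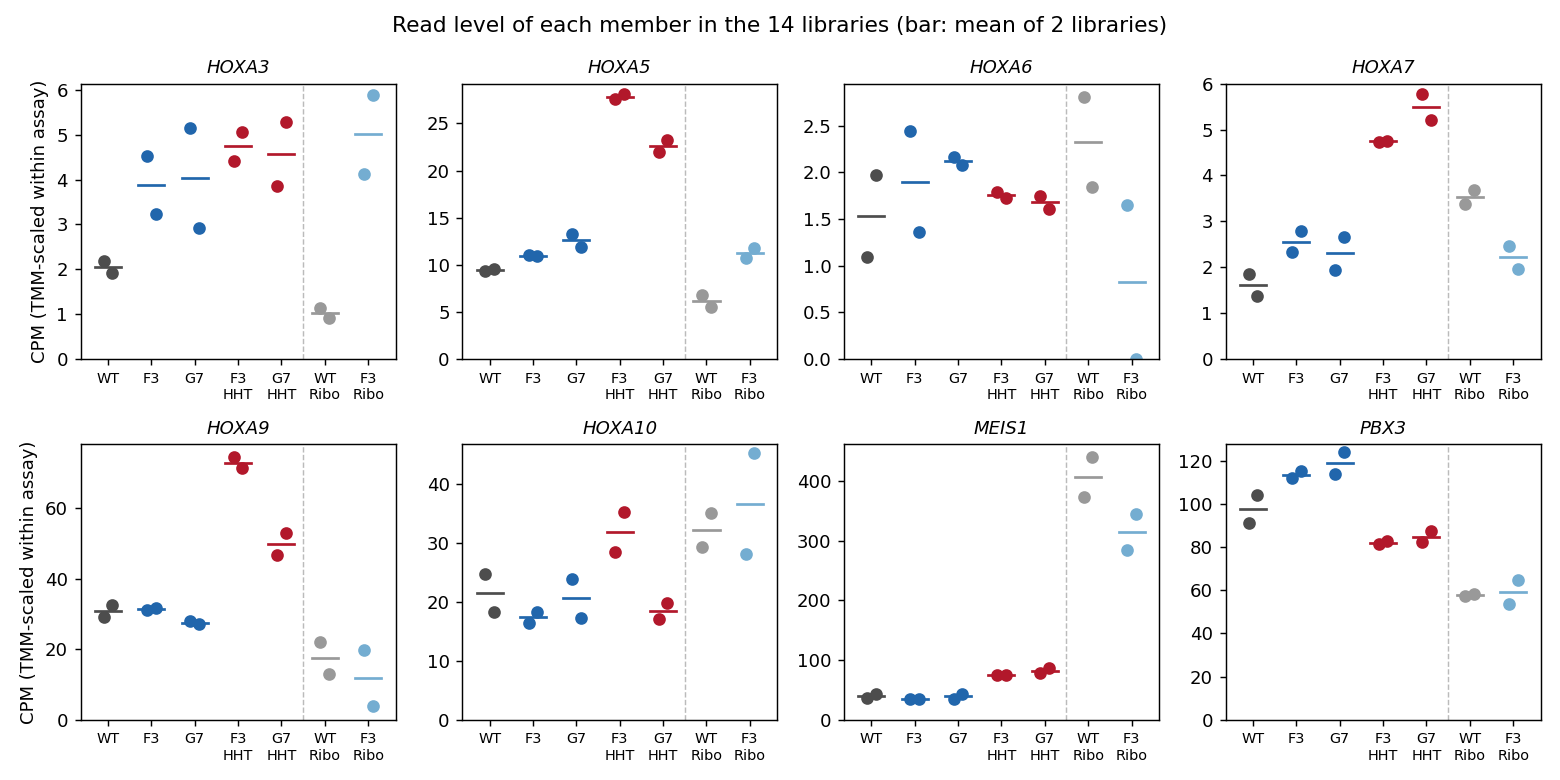
Level of each gene (CPM, axes from 0 and different for each gene) in the 14 libraries by line and treatment, with RiboLace right of the dashed line and scaled apart from total RNA; points are libraries and bars are means of 2. HOXA9 and HOXA5 are higher after HHT in F3 than in G7, HOXA10 stands apart after HHT in F3, and PBX3 is lower after HHT in both lines.

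Taken by line, 6 of 8 genes passed in F3, where 71.8% of all genes did, and 5 of 8 in G7, where 71.2% did. The gene that differed was HOXA10. In F3 it went from 16.4 and 18.3 CPM to 28.4 and 35.2, without overlap (0.82 ± 0.14, adjusted p = 7.49e-05). In G7 it went from 23.8 and 17.3 to 17.1 and 19.8 CPM, with overlap (-0.20 ± 0.15, adjusted p = 0.221), and this value turned to 0.02 with library totals alone and to 0.03 without mutant control replicate 3. Without mutant control replicate 4 it passed as a fall (-0.42, adjusted p = 0.0119).

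The difference between the responses of the lines was tested as an interaction. HOXA10 was the 1 gene of 8 that passed, with a response lower in G7 by 1.02 ± 0.20 on the log2 scale (adjusted p = 0.00901), where 3.8% of all genes passed. Without mutant control replicate 1 the value was -0.91 and did not pass (adjusted p = 0.116). The responses of HOXA5 (-0.50 ± 0.15, adjusted p = 0.0766) and HOXA9 (-0.35 ± 0.13, adjusted p = 0.146) were also lower in G7 without passing. With the replicate number as a block, both passed (adjusted p = 0.0083 and 0.0127) along with HOXA10, which makes 3 of 8. Under that block 2153 of all 14435 genes passed, against 548 without it. Pairing of same-numbered libraries within a line is not certain. The intervals for MEIS1 (-0.32 to 0.24) and PBX3 (-0.23 to 0.20) did not reach the size of the HOXA10 value.

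RiboLace libraries of F3 and wild type had their own fit. Only HOXA5, HOXA9, HOXA10, MEIS1 and PBX3 had enough reads to be tested, and 0 of the 5 passed, where 11.8% of all genes did. In this fit 0 had an unadjusted p under 0.05, against 27.4% of all genes. DESeq2 gave an adjusted p to 5243 genes only, which left out HOXA5, HOXA9 and HOXA10, and it did not call MEIS1 or PBX3. The groups of HOXA5 and MEIS1 did not overlap, as was so for 58.2% of all genes. HOXA5 stood at 6.75 and 5.53 CPM in wild type and 10.7 and 11.8 in F3, from 6 to 13 reads per library (0.92 ± 0.57, adjusted p = 0.304). MEIS1 stood at 374 and 441 CPM in wild type and 284 and 344 in F3, from 175 to 665 reads (-0.29 ± 0.28, adjusted p = 0.533). HOXA10 overlapped, at 29.3 and 35.0 against 28.0 and 45.2 CPM, as did PBX3, at 57.4 and 58.1 against 53.6 and 64.8.

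HOXA9 in RiboLace had 39 and 14 reads in wild type (21.9 and 12.9 CPM) and 24 and 2 in F3 (19.8 and 3.93 CPM). The 2 F3 libraries thus differed more than the genotypes (-0.25 ± 0.49, adjusted p = 0.786), and without mutant RiboLace replicate 2 the value was 0.22. HOXA3 had 2 and 1 reads in wild type and 5 and 3 in F3, HOXA6 had 5 and 2 against 2 and 0, and HOXA7 had 6 and 4 against 3 and 1. HOXA3, HOXA6 and HOXA7 had too few reads for this fit, so a difference between the genotypes was not tested in them.

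The last comparison took the ratio of RiboLace to total RNA, in 1 fit of 8 libraries with the total RNA of F3 controls as the mutant match. The total RNA libraries are those of the comparisons above. MEIS1 had the highest ratio of the 8. It went from 37.1 and 43.8 CPM in wild-type total RNA to 374 and 441 in RiboLace, and from 35.4 and 34.0 to 284 and 344 in F3. The log2 ratio was 3.45 ± 0.19 in wild type (10.9-fold, adjusted p = 5.28e-13) and 3.32 ± 0.19 in F3 (9.98-fold, adjusted p = 2.03e-12). That placed MEIS1 at rank 394 of 11816 protein-coding genes from the top in wild type and at rank 429 in F3. Among all 15338 genes tested its ranks were 1969 (12.8% of genes above it) in wild type and 2017 (13.1%) in F3. Where in MEIS1 the RiboLace reads lie was not analysed. In each genotype 4 of 8 genes passed, 2 higher and 2 lower in RiboLace, where 48.3% of all genes passed in wild type (27.3% higher and 21.0% lower) and 49.2% in F3 (26.5% higher and 22.7% lower).

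HOXA10 was the other gene higher in RiboLace, by 0.68 ± 0.23 in wild type (adjusted p = 0.0209) and 1.12 ± 0.28 in F3 (adjusted p = 0.00208). PBX3 was lower, by a log2 ratio of -0.65 ± 0.18 in wild type (adjusted p = 0.00398) and -0.82 ± 0.19 in F3 (adjusted p = 0.00136), as was HOXA9, at -0.64 ± 0.26 (adjusted p = 0.0483) and -0.92 ± 0.33 (adjusted p = 0.0262). MEIS1 kept its calls with every library left out in turn. Those of HOXA9 were lost in both genotypes with RLE scaling and with DESeq2, and in each genotype in 5 of the 8 fits that left out 1 library. These 8 fits gave -1.16 to -0.44 in wild type, highest without wild-type RiboLace replicate 2 (adjusted p = 0.221), and -2.84 to -0.53 in F3, highest without mutant RiboLace replicate 2 (adjusted p = 0.222). Leaving out total RNA replicate 2 of wild type, or either F3 control, ended the call in both genotypes, as did leaving out wild-type total RNA replicate 1. HOXA10 lost its call without wild-type RiboLace replicate 2 (0.50, adjusted p = 0.145) or wild-type total RNA replicate 2 (0.54) in wild type, and with library totals alone (0.54, adjusted p = 0.075), which moved the median of all genes to -0.13. It lost it without mutant RiboLace replicate 2 (0.83, adjusted p = 0.0583) in F3. PBX3 lost it without wild-type total RNA replicate 2 in wild type (-0.47, adjusted p = 0.0744) and without mutant RiboLace replicate 1 in F3 (-0.65, adjusted p = 0.0914).

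HOXA5 did not pass, at -0.48 ± 0.34 in wild type and 0.18 ± 0.35 in F3, nor did HOXA7, at 1.22 ± 0.57 and 0.02 ± 0.76. HOXA3 in wild type rested on 3 RiboLace reads, a ratio to total RNA of 0.497 with an exact 95% counting interval of 0.1 to 1.51. HOXA6 in F3 rested on 2, a ratio of 0.676 (0.0803 to 2.53). These intervals cover counting error only. Translational efficiency, the difference of this ratio between F3 and wild type, was called for 0 of the 8 genes, where 1.49% of all genes passed. Of the 8, 0 had an unadjusted p under 0.05, against 16.6% of all genes. DESeq2 gave an adjusted p to 7606 genes only, which left out HOXA3, HOXA5, HOXA6 and HOXA7, and it called none of the others. For MEIS1 its interval was -0.63 to 0.36.

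**Figure D4:**
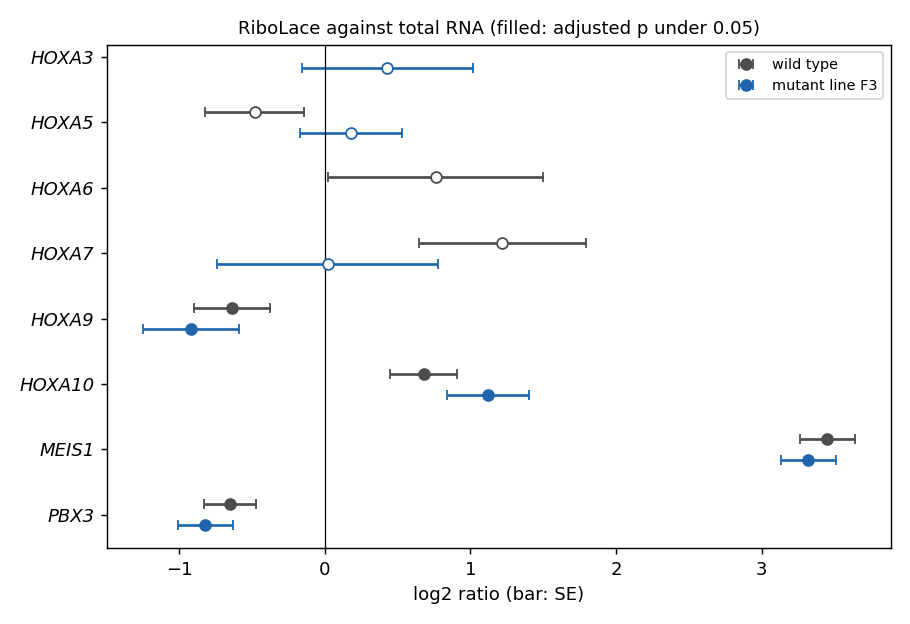
Log2 ratio of RiboLace to total RNA (x axis) for each gene with SE bars, in wild type and in F3, without the 2 values that rest on 3 or fewer reads; filled points passed at an adjusted p under 0.05. MEIS1 lies at 3.45 and 3.32, above all other members, while HOXA9 and PBX3 lie below 0 in both genotypes.

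Other genes of the pathway were followed as lists. Among 34 gene IDs of other HOX genes in the table, 1 gene having 2 IDs, those with at least 10 reads in all 10 total RNA libraries included HOXA11, HOXC8 and HOXC10. Of the 6 tested, none passed between mutant and wild type over both lines, where 4.56% of all genes did. After HHT 4 rose and 1 fell, where 39.8% of all genes rose and 38.8% fell. HOXA11, the next posterior gene of the cluster, rose by 1.26 ± 0.08 and HOXC8 by 1.62 ± 0.11, while HOXC10 fell by 1.81 on the log2 scale. HOXC8 passed against wild type in each line with opposite signs, at -0.78 ± 0.22 in F3 (adjusted p = 0.0224) and 0.60 ± 0.20 in G7 (adjusted p = 0.0448). Between the control lines it was higher in G7 by 1.38 ± 0.21 (adjusted p = 0.00027). HOXA2, at the anterior end of the cluster, had 4 to 9 reads in every total RNA library, or 0.176 to 0.468 CPM. In RiboLace it had at least 42 reads per library, with 97.9 and 135 CPM in wild type and 119 and 82.5 in F3. Its log2 ratio of RiboLace to total RNA was 8.99 ± 0.31 in wild type and 8.21 ± 0.31 in F3, above that of MEIS1. Where in the gene these reads lie was not analysed here, so the ratio is one of counts assigned to HOXA2.

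Among the 9 TALE relatives, 5 were tested after HHT and all 5 rose, where 39.8% of all genes did, among them MEIS2, a close relative of MEIS1, by 1.14 ± 0.06, the repressor TGIF1 by 0.55 ± 0.06 and PBX2 by 0.36 ± 0.06. Their median was 0.36, against 0.00 over all genes, while the member PBX3 stood at -0.53. In RiboLace against total RNA, none of 5 was higher and 2 were lower in each genotype. Of all genes, 27.3% were higher and 21.0% lower in wild type, and 26.5% and 22.7% in F3. PBX2 stood at -1.92 ± 0.20 in wild type. Between mutant and wild type in total RNA, TGIF1 passed over both lines (0.51 ± 0.12, adjusted p = 0.0425) and in each line, and TGIF2, another repressor, in F3 (0.35 ± 0.11, adjusted p = 0.0294).

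Of 22 upstream regulators, 19 were tested after HHT, and 13 rose and 6 fell, where 39.8% of all genes rose and 38.8% fell. The Polycomb subunits EED and EZH2 rose by 1.57 ± 0.07 and 1.16 ± 0.07, and AFF4, a scaffold of the super elongation complex, by 1.77 ± 0.08. Between mutant and wild type in total RNA none of the 19 passed over both lines, where 4.56% of all genes did. KMT2A, the methyltransferase that keeps HOXA genes active, passed in each line taken alone (F3 0.42 ± 0.14, adjusted p = 0.0464, and G7 0.43 ± 0.14, adjusted p = 0.0396). In RiboLace, 3 of 18 were higher in F3 than in wild type, where 6.18% of all genes were. They were KMT2A (1.00 ± 0.27, adjusted p = 0.0138), AFF1 (0.98 ± 0.27) and AFF4 (1.00 ± 0.28). NPM1 stood at -3.83 ± 0.21 in RiboLace against total RNA of wild type.

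Of 17 genes reported as targets of HOXA9 or MEIS1, 15 were tested after HHT. Of these, 6 rose and 6 fell, where 39.8% of all genes rose and 38.8% fell. The median of the 15 was -0.04. RNA of the anti-apoptotic BCL2 fell by 3.38, of the growth regulator MYC by 3.33 and of the kinase SYK by 1.38 on the log2 scale. Between mutant and wild type, MYC (0.68 ± 0.10, adjusted p = 0.00868) and MYB (0.66 ± 0.10, adjusted p = 0.0104) were higher and CCND3, cyclin D3, was lower (-1.35 ± 0.13, adjusted p = 0.00135) in total RNA. These were the 2 higher and 1 lower of 15 tested, where 2.49% of all genes were higher and 2.07% lower. In RiboLace 3 of 15 were higher, among them CDK6 (1.55 ± 0.30) and IGF1R (1.03 ± 0.27), and 1, CCND3, was lower (-1.03 ± 0.27). Of all genes, 6.18% were higher and 5.59% lower there. MYC overlapped in RiboLace, at 1270 CPM in both wild-type libraries and 1110 and 1370 in F3. SOX4 (-0.85 ± 0.12), MYC (0.71 ± 0.11) and MYB (0.68 ± 0.11) were among 7 of 15 targets whose HHT response differed between G7 and F3. Of all genes, 3.8% did so. CDK6 was the 1 target of 15 with a change in translational efficiency, where 1.49% of all genes had such a change.

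Of the 6 noncoding genes of the cluster, 4 were tested after HHT and HOTAIRM1 alone rose (1.52 ± 0.49, adjusted p = 0.0116), from 0 to 12 reads per control library to 17 to 22. Its mean level was low, at 0.288 CPM in controls and 0.862 after HHT. Taken by line, it passed in F3 (2.27 ± 0.71, adjusted p = 0.0093) but not in G7 (0.98 ± 0.62, adjusted p = 0.167). The responses of the lines did not differ by the interaction test (adjusted p = 0.57). Of all genes, 39.8% rose after HHT. HOXA-AS3 and HOXA10-AS did not pass in any comparison of total RNA.

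The genes most like each member over the 10 total RNA libraries were named by Pearson's r of log2(CPM + 1) among 9755 protein-coding genes, as a description of libraries that fall into control and HHT groups. They were NAA15 (r = 0.9973), SNRNP48 and CPSF2 for MEIS1, BPGM (0.9964), USP53 and MSC for HOXA9, and FAM129A (0.9966), FHL3 and ATXN1 for HOXA5. For PBX3 they were SNAPC3 (0.9913), WIPF1 and ZBTB44, and for HOXA10, with the lowest values, RAB5IF (0.9627), MARCKS and ZNF787.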

How the data were processed

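The authors deposited 1 table of raw counts, whose 14 columns were all matched to the labels. STAR 2.6.0b, DESeq2 and GRCh38 stand in the submitters' processing notes without a role. How reads were counted, and whether by strand, is not given in the sources used here. Of 58037 IDs, 57433 matched GENCODE 29 and 604 did not. Each comparison was fitted over all genes with edgeR 4.0.16 in R 4.3.3 (filterByExpr, TMM, quasi-likelihood F-test, Benjamini-Hochberg per comparison, 12 in all) and called at an adjusted p under 0.05. The SE is the size of the log2 value over the root of F, and intervals are 1.96 SE either way. Fits pool F3 and G7 only where stated, and libraries of 1 line count as independent, so no p-value takes the line as the unit. Mutant against wild type in total RNA has no line term, so differences between the lines count as error there. With line as a covariate or as separate groups, level differences between the lines are left out of the error. The fit of both assays gives them the same spread per gene. Same-numbered HHT and control libraries come from the same line, and their deviations from the line means had r of 0.198 (F3) and 0.431 (G7); the descriptions number the libraries otherwise than the titles, so pairing within a line is not certain. Scripts were tested on simulated counts.

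Named were the 8 members and, per list and comparison, up to 3 called genes with the smallest adjusted p, or those of highest CPM where none was called, plus genes that overlap a member's exons and the 3 genes of highest r. HOXA2 belongs to that rule. RUNX1, outside it, serves as a check only. Some genes of the lists are not reported here by name. Members, lists and tests were chosen with earlier results of these data known. Alternatives were DESeq2 1.42.0, scaling by RLE or by totals, no filter, a replicate block and each library left out; protein-coding genes alone and crossed numbers were added after seeing the data.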

Additional observations from a re-analysis of the deposited data

Results flagged for a closer look

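MEIS1 in the mutant controls had 1 library apart from the other 3. G7 replicate 4 stood at 44.0 CPM, against 35.4 and 34.0 in F3 and 35.0 in G7 replicate 3, a gap of 0.855 of the whole range, where Dixon's critical value for 4 samples is 0.829. Of 16 sets of 4 libraries checked this way it was the only one past that value, and chance flags about 1 in 20. PBX3 was also highest in that library, at 124 CPM against 112, 115 and 114, without passing the critical value. HOXA3 and HOXA9 were lowest there among the controls, at 2.91 and 27.1 CPM.

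HOXA10 differed between the lines in its response to HHT, with a log2 response lower in G7 than in F3 by 1.02 (a value of -1.02 ± 0.20, SE, adjusted p = 0.00901, edgeR interaction test). Both F3 HHT libraries were above both F3 controls, while those of G7 overlapped.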

How the results depend on the processing

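Of 1123 recomputed log2 values of the 8 genes, 1030 kept their direction and side of the threshold, 30 lost a call, 13 gained one and 50 changed sign, none of them a value that had passed. The number of genes called kept within 1.5 times in every setting for HHT against control, over both lines and by line, for G7 against F3, for mutant against wild type in RiboLace and for translational efficiency. For RiboLace alone and for translational efficiency, DESeq2 gave some members no adjusted p, so it could not call them. Mutant against wild type in total RNA called 1 gene with no filter, in place of 0. With the replicate block it also called 1 (HOXA3, 0.91, adjusted p = 0.00347). Replicate numbers 3 and 4 belong to G7 alone, so under the block this value compares F3 with wild type, not both mutant lines. F3 against wild type called 0 with library totals alone and 0 with DESeq2, and G7 against wild type called 0 with DESeq2; with 1 library left out both called 0 to 1. The difference of HHT responses called 3 with the replicate block and 0 to 2 with 1 library left out. RiboLace against total RNA called 1 to 4 in wild type and 2 to 4 in F3 with 1 library left out. Where a group then holds 1 library, it is assumed to vary like the others. Over all genes, calls for mutant against wild type in total RNA went from 636 to 1655 with no filter and 1111 with DESeq2. The block, which here sets F3 alone against wild type, gave 2609. Calls for the difference of HHT responses went from 548 to 823 with no filter and 2153 with the block. In RiboLace mutant against wild type gave 1154, 415 with DESeq2, and translational efficiency 229, 634 with DESeq2, 527 with no filter, 361 with protein-coding genes and 151 with library totals. Leaving out 1 library gave 43 to 649 calls for mutant against wild type, 948 to 3250 for F3 against wild type, 847 to 2278 for G7 against F3, 178 to 1089 for the difference of HHT responses, 247 to 1811 in RiboLace, 4679 to 7885 for RiboLace against total RNA in F3 and 24 to 1497 for translational efficiency. Of the calls, the share higher went from 52.5% to 38.7% with no filter in RiboLace and from 32.3% to 47.7% with library totals in translational efficiency. Sign changes of uncalled values were HOXA9 at 0.02 for mutant against wild type with the block, which rests on F3 alone there. With library totals they were HOXA6 at 0.04 in F3 and HOXA10 at 0.02 in G7 after HHT. PBX3 was at 0.00 for the difference of HHT responses and MEIS1 at 0.00 for translational efficiency, both with library totals. For RiboLace against total RNA in F3, HOXA7 was at -0.09 with no filter and -0.03 with a crossed block. With 1 library left out, the sign of 25 uncalled values changed. For mutant against wild type in total RNA these were HOXA9 (-0.15 to 0.02), HOXA10 (-0.38 to 0.05) and MEIS1 (-0.24 to 0.00). For F3 against wild type these were HOXA6 (-0.18 to 0.80) and HOXA9 (-0.06 to 0.11). For G7 against wild type these were HOXA10 (-0.30 to 0.17) and MEIS1 (-0.21 to 0.12). For G7 against F3 these were HOXA3 (-0.41 to 0.42), HOXA6 (-0.20 to 0.63) and HOXA7 (-0.38 to 0.05). For HHT in F3 these were HOXA3 (-0.03 to 0.46) and HOXA6 (-0.58 to 0.27). For HHT in G7 these were HOXA3 (-0.22 to 0.59) and HOXA10 (-0.42 to 0.03). For the difference of HHT responses these were HOXA3 (-0.42 to 0.40), HOXA6 (-0.66 to 0.18), MEIS1 (-0.17 to 0.17) and PBX3 (-0.06 to 0.09). For mutant against wild type in RiboLace these were HOXA9 (-2.03 to 0.22), HOXA10 (-0.12 to 0.62) and PBX3 (-0.04 to 0.29). For RiboLace against total RNA in F3 it was HOXA7 (-0.23 to 0.09). For translational efficiency these were HOXA9 (-2.19 to 0.19), MEIS1 (-0.27 to 0.02) and PBX3 (-0.28 to 0.00). Apart from the calls named, the replicate block changed 1 more, HOXA9 in wild-type RiboLace against total RNA (adjusted p = 0.0576). Same-numbered libraries of other groups share a number alone, with r of -0.134 for wild type and F3, -0.046 in RiboLace, and -0.109 and -0.122 between assays. With crossed numbers, chosen after seeing the data, the counts of members called were 1, 4, 4 and 0 for F3 against wild type, for both genotypes' RiboLace ratios and for translational efficiency. The median of all genes moved from -0.02 to 0.09 with RLE and 0.11 with DESeq2 for RiboLace against total RNA in F3, and from -0.04 to 0.09 with library totals for translational efficiency. Beyond the fewer libraries or genes of a setting, the cause was not tested. RiboLace depth limits HOXA3, HOXA6 and HOXA7.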
